A study of Mus musculus with 2207 samples.

Results

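The layer 6 class comprised 20.7% of 1324 excitatory nuclei from mouse cortex. These were taken from 1664 nuclei labelled as neurons, out of 2207 nuclei in all, which were measured one by one with RamDA-seq, a full-length RNA sequencing method that also reads RNA without a poly(A) tail. Excitatory nuclei were neurons with more *Slc17a7*, the vesicular glutamate transporter, than *Gad1*, the GABA-synthesizing enzyme. Each excitatory nucleus was given to 1 of 4 classes by its highest mean z-score over 3 markers: *Cux2*, *Calb1* and *Otof* for the upper layer, *Rorb*, *Rspo1* and *Scnn1a* for layer 4/5a, *Fezf2*, *Etv1* and *Bcl11b* for layer 5, and *Foxp2*, *Tle4* and *Syt6* for layer 6. The upper layer, layer 4/5a and layer 5 classes held 26.96%, 27.6% and 24.7% of the excitatory nuclei. The levels of these 14 genes chose the members and are given as a description only.

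The nuclei came from 6 pools, each of 3 male C57BL/6 mice of 14 weeks of age, and all mice received tamoxifen at 100 mg/kg on 2 occasions from 3 weeks of age. The wild type (WT) and *Ehmt1* Δ/+ pools, the latter heterozygous for loss of the histone methyltransferase GLP, were sequenced once in 96-well and once in 384-well plates. In the 384-well plates, the iTg and Δ/+; iTg pools also carried CamKII-CreER, which drives an inducible Cre in postnatal forebrain neurons and thereby switches on a FLAG-Ehmt1 transgene at the Rosa26 locus. By their labels, the 384-well WT and Δ/+ mice carried the transgene without Cre. The 6 pools contributed 34 (WT, 96-well), 52 (Δ/+, 96-well), 34 (WT, 384-well), 57 (Δ/+, 384-well), 42 (iTg) and 55 (Δ/+; iTg) layer 6 nuclei, and values are listed in this order below. No nucleus could be tied to a mouse, so a pool was 1 replicate, and the spread between pools holds differences of mice, plates and sorting together.

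Layer 6 is the deepest layer of the cortex. Its best-known cells are corticothalamic pyramidal neurons, which send axons to the thalamus and thereby control the relay that supplies the cortex. Beside them lie neurons that project within the cortex, and beneath them the thin layer 6b, a remnant of the fetal subplate. The transcription factors *Tbr1* and *Sox5* are known for establishing the corticothalamic fate, whereas *Fezf2* and *Bcl11b* (CTIP2) are known for subcerebral projection neurons of layer 5.

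*Ehmt1*, the gene targeted in these mice, was checked first, and its RNA level did not follow the direction of the labels. Its mean level in layer 6 nuclei was 17.6, 30.1, 18.0, 33.3, 20.5 and 36.6 RPKM (reads scaled to the length of the gene and to the reads of the nucleus). The 3 pools labelled Δ/+ were therefore above the 3 others. The value covers the whole gene and does not show the deleted exons or the transgene separately. By western blot, the paper reports less GLP protein in Δ/+ than in WT brain, which is a different measure from RNA. Each genotype direction below therefore rests on the labels.

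The levels of the markers that chose the class differed by construction. Mean *Foxp2*, a forkhead transcription factor, was 10.4, 11.4, 5.56, 6.26, 5.72 and 5.73 RPKM in layer 6 and at most 0.706 RPKM in any pool of another class. *Tle4*, a Groucho-family corepressor, was at 36 to 49 RPKM in layer 6 and at 2.42 to 14.9 RPKM elsewhere, and *Syt6*, a synaptotagmin, at 26.1 to 32.8 RPKM and at most 0.827 RPKM. Of the members, 84.3% had all 3 markers above 0, 26 nuclei had 2 and 17 had 1. The layer 5 score was second in 93.4% of members, whose *Fezf2* (10.8 to 19 RPKM) and *Bcl11b* (11.3 to 15.9 RPKM) were also high, with 14.5 to 27.3 and 7.41 to 14.5 RPKM in the layer 5 class. *Etv1*, the third layer 5 marker, was at 0.0977 to 0.800 RPKM in layer 6 and at 2.93 to 11.8 RPKM in layer 5. *Slc17a7* was at 91.4 to 153.2 RPKM and *Gad1* at 0.189 to 2.57 RPKM in layer 6.

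The lead of the layer 6 score over the next score was 1.13 z units in the median member and ranged from 0.0159 to 2.22. In 82.5% of members it was at least 0.5. The 13 members with a lead under 0.1 had a median *Tle4* of 9.09 RPKM, and 15.4% of them had *Foxp2* and 38.5% *Syt6* above 0. The 23 nuclei just outside, whose layer 6 score was second by less than 0.1, had a median *Tle4* of 9.42 RPKM, with *Foxp2* in 21.7% and *Syt6* in 34.8%. Members and non-members thus grade into each other at the edge of the class.

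The median layer 6 nucleus had 295311 to 391182 reads on genes depending on the pool. Layer 6 nuclei had 4.73% more reads than layer 4/5a nuclei, in 6 of 6 pools, although Δ/+; iTg was almost level (295311 against 295304). This difference did not pass correction (exact sign-flip permutation test over pools, two-sided, adjusted p = 0.0938 over 3 classes). Their read totals against the upper layer and layer 5 also did not pass (exact permutation, adjusted p = 0.125 for each). They had fewer detected genes than the upper layer (-4.96%, lower in 6 of 6 pools) and layer 5 (-6.18%, lower in 6 of 6 pools; exact permutation, adjusted p = 0.0469 for both), whereas the difference of 1.32% from layer 4/5a did not pass (adjusted p = 0.2812). Some plate-well names recurred between pools of both plate formats (379 of them in 384-well plates), but 0 nuclei shared identical values.

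**Figure D1:**
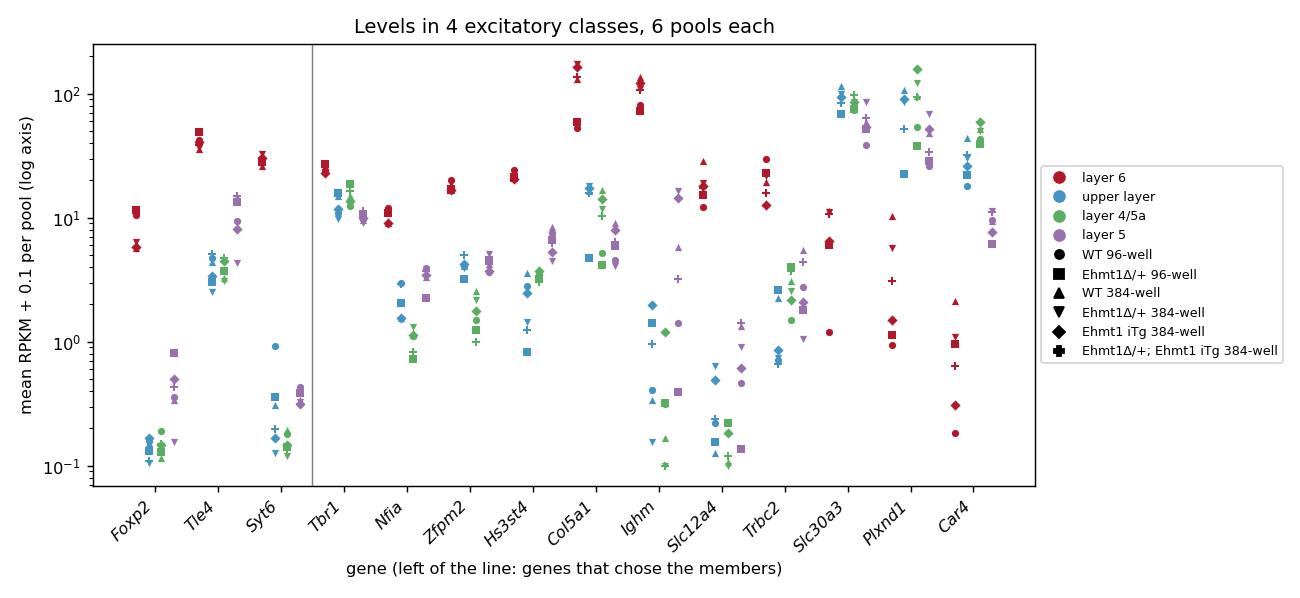
Mean RPKM plus 0.1 (log axis) of 14 genes in the 4 excitatory classes, with 1 symbol per pool and 1 colour per class. Genes left of the line chose the members; to the right, *Tbr1* to *Trbc2* are above all other classes in the 6 layer 6 means, and *Slc30a3*, *Plxnd1* and *Car4* are below them.

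To find what else layer 6 nuclei share, log2 of the mean RPKM plus 0.1 of each pool and class was compared with limma over all 24 means, with the pool as a block. Of 22535 genes tested, 1215 were higher in layer 6 than in each of the other 3 classes (5.39%) and 1819 were lower (8.07%), at an adjusted p under 0.05 in every contrast. Singly, 2973 genes (13.2%) were higher and 4129 (18.3%) lower than in the upper layer, 3586 (15.9%) and 4248 (18.9%) against layer 4/5a, and 2198 (9.75%) and 3491 (15.5%) against layer 5. The excess of lower genes depended on the scaling: when each mean was centred on its median gene, 1661 genes were higher and 1556 lower in all 3 contrasts, which is 51.6% of calls higher in place of 40.05%. For the single contrasts, 52.9% in place of 41.9% of calls were higher against the upper layer, 53.9% in place of 45.8% against layer 4/5a and 53.6% in place of 38.6% against layer 5. Because the classes were cut from the same nuclei, genes that follow the markers from nucleus to nucleus had to differ. The adjusted p describes how reproducible a difference was over the 6 pools, and is no independent test of the class. A stricter description is that all 6 layer 6 means lay above the 18 means of the other classes for 1.24% of genes and below them for 1.5%.

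Most corticothalamic genes tested outside the rule were high in the class. Their list was chosen with earlier results of these data known, so the counts are a description. Of 10 such genes listed, 8 were tested, and 6 were higher in layer 6 than in each other class: *Rprm*, *Zfpm2*, *Hs3st4*, *Sla*, *Cpa6* and *Col5a1*. Of all genes tested, 5.39% were. The median log2 difference over the 8 was 2.53 against the upper layer, 3.22 against layer 4/5a and 1.95 against layer 5, where the median over all genes was -0.03, -0.02 and -0.03. At least 3 of 8 of these genes were above 0 in 92.7% of members, in 40.3% of upper layer, 23.2% of layer 4/5a and 70.6% of layer 5 nuclei.

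*Hs3st4*, a heparan sulfate sulfotransferase, was at 24.2, 21, 21.2, 21.4, 20.3 and 22.7 RPKM in layer 6 and at most 8.28 RPKM elsewhere. *Zfpm2*, a cofactor of GATA factors (FOG2), was at 16.8 to 19.9 RPKM and at most 5.04 RPKM elsewhere. Both had all layer 6 means above every other mean. The best-known driver gene for corticothalamic neurons did not separate the class: *Ntsr1*, the neurotensin receptor 1, was at 2.35 to 4.98 RPKM in layer 6 and at 2.77 to 3.61 RPKM in the upper layer, a log2 difference of 0.23 ± 0.23 (SE; limma adjusted p = 0.502). It was higher than in layer 4/5a by 2.24 ± 0.23 and layer 5 by 1.26 ± 0.23. *Crym*, a thyroid hormone binding protein, was higher than in the upper layer (2.07 ± 0.24) and layer 4/5a (3.12 ± 0.24), with 0.48 ± 0.24 against layer 5 (adjusted p = 0.167). *Nxph2* and *Gpr139* were above 0 in 6.57% and 5.84% of members and were not tested.

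*Col5a1*, a fibrillar collagen chain, was the most abundant of these genes. It was at 53.3, 58.8, 130.9, 173.6, 164.9 and 135.8 RPKM in layer 6, and the other classes reached 17.9 RPKM. The 2 pools in 96-well plates were the lowest of the 6, and within each plate format layer 6 stood above the other classes. The log2 difference was 3.29 ± 0.23, 3.55 ± 0.23 and 4.15 ± 0.23 against the upper layer, layer 4/5a and layer 5.

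Of 15 transcription factors of deep-layer identity, 5 were higher and 3 lower in layer 6 than in each other class, where 5.39% and 8.07% of all genes were. *Tbr1* was above 0 in all members and at 24.2, 27, 24.6, 24.7, 23.1 and 26 RPKM, against 8.95 to 18.6 RPKM elsewhere. The layer 6 means of *Tbr1* thus did not overlap those of other classes, although its log2 differences were modest (0.77 ± 0.08 to 1.32 ± 0.08). *Sox5* was at 10.3 to 16.5 RPKM and at most 9.94 RPKM elsewhere. The nuclear factor I genes moved with them: *Nfia* was at 8.91 to 12 RPKM and at most 3.82 RPKM elsewhere, and *Nfib* at 17.5 to 28.2 RPKM and at most 16.3 RPKM. On the lower side, *Mef2c*, a factor of activity-dependent synapse control, had log2 differences of -0.96 ± 0.08, -1.30 ± 0.08 and -0.31 ± 0.08, and *Pou3f1*, a POU factor, was at most 0.167 RPKM in layer 6 and at least 0.328 RPKM elsewhere.

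Genes of the other excitatory classes were counted in the same way. Of all genes tested, 5.39% were higher and 8.07% lower throughout, 18.3% lower than in the upper layer and 15.5% lower than in layer 5. Of 8 further upper layer genes tested, 4 were lower in layer 6 than in each other class (*Rasgrf2*, *Stard8*, *Lamp5*, *Inhba*), and 8 of 8 were lower than in the upper layer. *Rasgrf2*, a Ras exchange factor, was at 0.988 to 2.28 RPKM in layer 6 and at 29.5 to 49.9 RPKM in the upper layer. Of 5 layer 4 genes, 3 were lower throughout (*Kcnh5*, *Whrn*, *Thsd7a*). Of 5 layer 5 pyramidal tract genes, *Pou3f1* and *Bcl6* were lower throughout, and 5 of 5 were lower than in layer 5. Near-projecting neuron genes gave 0 of 4 higher or lower throughout, and 3 of 4 were lower than in layer 5. Of 5 layer 5 intratelencephalic genes, the ETS factor *Etv5* was higher and *Fam19a2*, a secreted chemokine-like protein, lower throughout.

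At least 1 of 5 layer 6b markers was above 0 in 50.4% of members and in 52.3% of layer 5 nuclei, and all 5 in 4 nuclei of each class. *Ccn2* (connective tissue growth factor) was at 29.1, 7.29, 7.19, 6.49, 0.736 and 16.5 RPKM, a wide spread with iTg lowest, and was above 0 in 25.2% of members. It was higher than in the upper layer (3.56 ± 0.70) and layer 4/5a (5.21 ± 0.70), with 1.42 ± 0.70 against layer 5 (adjusted p = 0.155). *Svil*, supervillin, was higher than in the upper layer (3.37 ± 0.65) and layer 4/5a (3.98 ± 0.65), with -0.04 ± 0.65 against layer 5. *Nr4a2* was higher than in layer 4/5a (1.32 ± 0.39), with -0.52 ± 0.39 against the upper layer and -0.02 ± 0.39 against layer 5 (limma adjusted p = 0.359 and 0.978). Of these 3 layer 6b genes tested, 0 were higher or lower throughout, where 5.39% and 8.07% of all genes were. *Cplx3*, *Nxph4*, *Moxd1* and *Trh* of the same list were not tested. At least 3 of 5 layer 6b markers were above 0 in 23 members (8.39%), and in 1.12%, 0.273% and 2.75% of upper layer, layer 4/5a and layer 5 nuclei. Of the markers of layer 6 intratelencephalic neurons, *Sulf1*, an extracellular sulfatase, was higher in layer 6 than in each other class (3.71 to 7.13 RPKM) and was above 0 in 64.2% of members, while *Car3* was at 0 in all members. *Gnb4* and *Synpr* of the same list were lower than in the upper layer (-1.11 ± 0.27 and -2.01 ± 0.36) and did not pass against the other classes. At least 2 of 5 genes of the *Car3* type were above 0 in 2.55% of members, and in 10.4%, 1.91% and 11.01% of upper layer, layer 4/5a and layer 5 nuclei.

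The 23 members with layer 6b genes differed from the other members in the genes that lead the class, which is given as a description because the subset was cut from the same values. *Tbr1* and *Tle4* were above 0 in all of both sets. *Foxp2* was above 0 in 73.9% of the 23 and 88.8% of the others, and *Syt6* in 65.2% and 92.8%. *Trbc2*, described below, was above 0 in 8.70% and 75.7%, *Ighm* in 21.7% and 76.9%, and *Col5a1* in 52.2% and 90.4%. *Zfpm2* (95.7% and 92.4%) and *Hs3st4* (91.3% and 93.2%) were as frequent in both, and *Ntsr1* was above 0 in 78.3% and 50.6%.

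The 20 genes highest in layer 6 by the smallest of the 3 differences, after passing over 19 predicted genes, pseudogenes and small RNAs, were *Slc12a4*, *Ighm*, *Trbj1-2*, *H60b*, *Krt80*, *Trbj2-1*, *Cnksr3*, *Trbj1-3*, *Col5a1*, *Lcat*, *Lsp1*, *Prss2*, *Trbc1*, *Myh3*, *Ttyh2*, *Sla*, *Trbc2*, *Erbb2*, *Prss1* and *Arhgap25*. In each of the 20, all 6 layer 6 means lay above the 18 others. Since genes entered the test through the class in which they were detected, the least detected of them had to differ, and their order is a description.

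*Slc12a4*, the potassium-chloride cotransporter KCC1 on chromosome 8 (105943590 to 105966097, GRCm38), led the list. It was at 12.2, 15.2, 28.7, 19.1, 18.0 and 17.4 RPKM in layer 6 and at most 1.32 RPKM in the other classes, and it was above 0 in 65.7% of members and in 2.19% to 9.17% of the others. The log2 differences were 6.09 ± 0.48, 6.89 ± 0.48 and 4.81 ± 0.48. It was also above 0 in 19.9% of oligodendrocytes and 30.1% of microglia. Its neighbour *Lcat*, which encodes the cholesterol acyltransferase of plasma lipoproteins, lies on the same strand less than 5 kb away and followed it, at 3.99 to 6.69 RPKM against at most 0.830 RPKM, so reads of both genes may be linked. *Cnksr3*, a scaffold protein, was at 4.22, 2.74, 2.38, 2.76, 3.84 and 3.75 RPKM and at most 0.330 RPKM elsewhere (log2 differences of 3.57 ± 0.19 to 4.79 ± 0.19). *Krt80*, a keratin, was at 7.34 to 25.9 RPKM in layer 6, at most 3.43 RPKM in layer 5, and listed at 0 in all layer 4/5a means. *H60b*, a ligand of the NKG2D receptor whose locus overlaps *Raet1e*, was at 4.18 to 15.3 RPKM, at most 0.425 RPKM elsewhere, and likewise listed at 0 in layer 4/5a.

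*Ighm*, the constant region of the immunoglobulin mu heavy chain (chromosome 12, 113418558 to 113422730), was at 81.3, 72.2, 136.1, 108.7, 122.9 and 107.9 RPKM in layer 6. The upper layer reached 1.88, layer 4/5a 1.10 and layer 5 16.3 RPKM, so the groups were far apart in every pool. It was above 0 in 72.3% of members and in 3.92%, 3.55% and 13.1% of upper layer, layer 4/5a and layer 5 nuclei. In the immunoglobulin heavy locus, 2 of 8 constant genes were tested, *Ighm* and *Ighg2c*, and 0 of the variable genes. *Arhgap25*, a GTPase activating protein of blood cells, was at 15.4, 14.5, 15.2, 17.1, 19 and 16.2 RPKM and at most 3.47 RPKM elsewhere, and was above 0 in 83.9% of members.

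Both genes were also high in microglia, where *Ighm* was above 0 in 86.3% of nuclei (mean 134.5 RPKM) and *Arhgap25* in 92.5% (33.6 RPKM), and low in oligodendrocytes (1.51% and 0.756% of 397 nuclei). Of the other leading genes, *Sla*, an adaptor protein of lymphocytes, was above 0 in 90.4% and *H60b* in 19.2% of microglia, and *Krt80*, *Trbc2* and *Col5a1* in at most 2.74%. Defining microglial genes were near 0 in layer 6. Of 10 microglia genes listed, 4 were tested. Of these, *Inpp5d* was higher in layer 6 than in each other class (0.225 to 0.984 RPKM against at most 0.870), as were 5.39% of all genes tested. The summed level of the 10 was 5.51 to 14.1 RPKM in layer 6 and 5.90 to 17.6 RPKM in the other classes. *C1qa* was above 0 in 1.09%, *C1qb* in 1.46%, *Tmem119* in 1.09% and *Cx3cr1* in 7.66% of members. *Ptprc*, which encodes the pan-leukocyte antigen CD45, was above 0 in 1.46%.

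The T cell receptor beta locus was marked in layer 6 by a group of neighbouring genes. Along chromosome 6 from 40891229 to 41558452, 81 genes are annotated, and the locus was singled out after its genes appeared among the highest. Of these, 12 were tested, and those were higher in layer 6 than in each other class, as were 5.39% of all genes tested. Since the locus was chosen for this, and genes seen in few nuclei outside layer 6 could enter the test through layer 6 alone, the count is no support. The 12 genes lie toward the 3′ end, from *Prss3* (start 41373814) to *Trbc2* (end 41548352). They are the 2 constant genes, 3 of 13 joining segments, 4 protein-coding genes, 2 processed pseudogenes and 1 unprocessed pseudogene. The protein-coding ones are the trypsinogen genes *Prss1*, *Prss2* and *Prss3*, and the predicted gene *Gm10334*. Of 35 variable genes and pseudogenes, 0 were detected in enough nuclei to be tested.

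*Trbc2*, the constant gene 2 (41546730 to 41548352), was at 29.7, 22.8, 19.4, 21.7, 12.6 and 15.7 RPKM in layer 6 and at most 5.43 RPKM elsewhere. It was above 0 in 70.1% of members, in 9.24% to 20.2% of the other classes and in 0.252% of oligodendrocytes and 2.74% of microglia. *Trbc1* (41538218 to 41539881) was at 5.04 to 21.1 RPKM and at most 2.5 RPKM elsewhere. *Prss2*, an anionic trypsinogen (41521787 to 41525079), was at 8.41 to 17.2 RPKM and at most 1.68 RPKM, and *Prss1* at 1.18 to 2.34 RPKM and at most 0.959 RPKM. The trypsinogens are close copies, so their separate levels are uncertain. Whether reads were shared between *Trbc1* and *Trbc2* was not tested. The joining segments *Trbj1-2*, *Trbj1-3* and *Trbj2-1* are 48, 54 and 50 bases long, so 1 read weighs heavily in their RPKM, and they were above 0 in 24.1%, 23% and 19.3% of members.

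**Figure D2:**
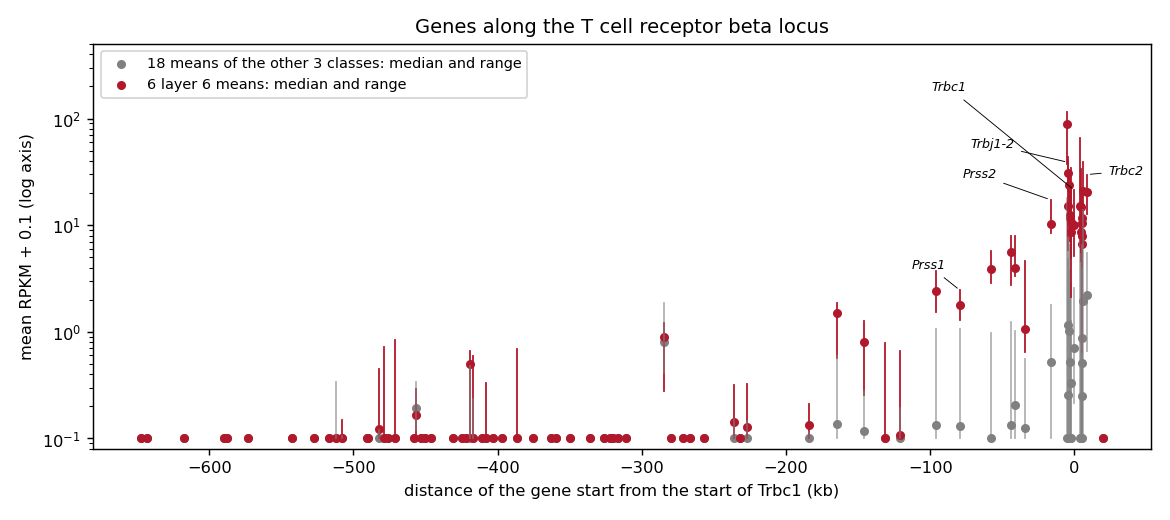
Mean RPKM plus 0.1 (log axis) of the 81 genes along the T cell receptor beta locus, by distance of the gene start from the start of *Trbc1* in kb. Points are medians and lines ranges of the 6 layer 6 means (red) and the 18 means of the other classes (grey); most genes on the left lie near 0 in both, and *Trbc2* lies at 12.6 to 29.7 RPKM in layer 6.

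Of the members with *Ighm*, 80.8% also had *Trbc2*, 76.8% *Slc12a4* and 55.6% *H60b* above 0, and of the 76 members without it 42.1%, 36.8% and 26.3%. Their median depth was not matched, and this is a description. The 48 members with a lead under 0.5 had *Ighm* in 37.5%, *Trbc2* in 29.2% and *Slc12a4* in 22.9%, against 79.6%, 78.8% and 74.8% of the members with a larger lead. In the 84 nuclei of other classes whose layer 6 score was second by less than 0.5, *Ighm* was above 0 in 16.7%, *Trbc2* in 14.3% and *Slc12a4* in 5.95%.

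The 10 genes lowest in layer 6, after passing over 14 names, were *Rreb1*, *Plxnd1*, *Car4*, *Gpc6*, *Hs6st3*, *Krt20*, *Fam19a1*, *Slc30a3*, *Ptgfrn* and *Boc*. In each of these, all 6 layer 6 means lay below the 18 others. *Slc30a3*, the transporter that fills glutamatergic vesicles with zinc, was at 1.09, 5.89, 11.2, 11.1, 6.39 and 10.5 RPKM in layer 6 and at 38.8 to 115.9 RPKM in the other classes, and was above 0 in 19% of members and 65.7% to 97.3% of the others. *Plxnd1*, a semaphorin receptor, was at 0.846, 1.03, 10.2, 5.64, 1.40 and 2.97 RPKM against 22.6 to 157.8 RPKM. *Car4*, a membrane carbonic anhydrase, was at 0.0833 to 2.02 RPKM against 5.99 to 59.4 RPKM (log2 differences of -5.40 ± 0.34, -6.25 ± 0.34 and -3.78 ± 0.34). *Boc*, a Hedgehog coreceptor, was at 0.417 to 3.18 RPKM against 9.45 to 49.3 RPKM. *Hs6st3*, a heparan sulfate 6-O-sulfotransferase, was at 0.722 to 5.15 RPKM against 16.6 to 62.9 RPKM, and *Gpc6*, a glypican, at 0.0126 to 0.353 RPKM against 1.54 to 6.67 RPKM.

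**Figure D3:**
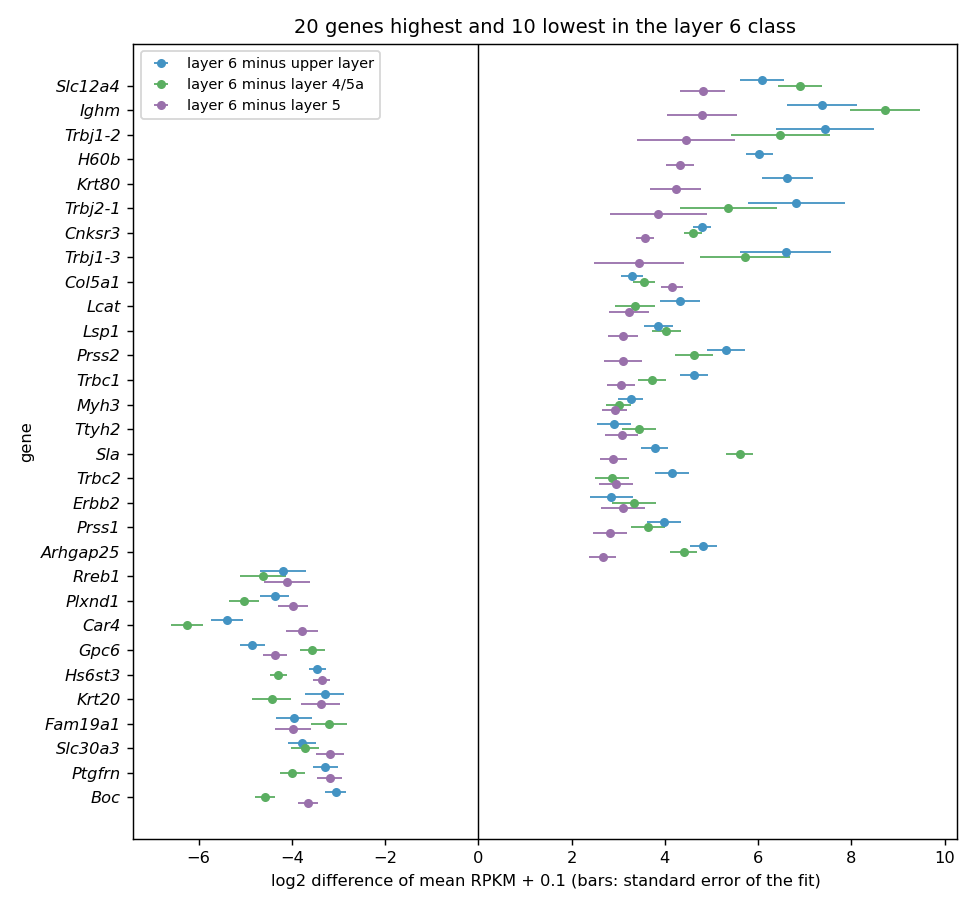
Log2 difference of mean RPKM plus 0.1 between layer 6 and the upper layer, layer 4/5a and layer 5 for the 20 genes highest and the 10 lowest in layer 6, with the standard error of the limma fit. *Slc12a4* lies at 4.81 to 6.89 and *Car4* at -6.25 to -3.78; no difference from layer 4/5a is drawn for *H60b* and *Krt80*, which were listed at 0 there.

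The counts of receptors and channels below stand beside 5.39% of all genes higher and 8.07% lower throughout, and in short lists they lie within a few genes of these shares. Of 16 ionotropic glutamate receptor genes tested, 5 were higher in layer 6 throughout (*Gria2*, *Gria3*, *Grik3*, *Grik4*, *Grik5*) and 2 lower (*Gria4*, *Grik1*). *Grik3*, a kainate receptor subunit, was at 55.5, 49, 72, 78.3, 68.4 and 61.9 RPKM, and layer 5, the next class, was at 19.4 to 40.9 RPKM. *Grik1*, another kainate subunit, was above 0 in 2.19% of members and in 18.8% to 49.7% of the other classes. Of 7 metabotropic receptor genes, *Grm2*, *Grm5* and *Grm7* were lower and 0 higher. *Grm7* was at 23.3 to 26.2 RPKM in layer 6 and at 50.2 to 98.8 RPKM elsewhere, with log2 differences of -1.48 ± 0.05, -1.93 ± 0.05 and -1.08 ± 0.05. Of 11 GABA-A receptor genes, 2 were lower (*Gabra2*, *Gabrd*), and of 5 vesicular transporter genes *Sv2a* was higher and *Slc17a6* and *Slc30a3* lower.

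Of 40 neuromodulator receptor genes tested, 5 were higher in layer 6 than in each other class and 6 lower, where 5.39% and 8.07% of all genes were. *Chrna4*, the α4 nicotinic receptor subunit, was at 26, 17.6, 42.1, 37.6, 35.9 and 30.8 RPKM. Layer 5 was next at 8.0 to 18.2 RPKM, and the log2 difference from it was 1.37 ± 0.18. *Htr1f*, a serotonin receptor, was at 9.61 to 12.8 RPKM and at most 7.40 RPKM elsewhere. *Hcrtr2*, the orexin receptor 2, was at 1.51 to 5.81 RPKM and was above 0 in 34.3% of members, and *Oprm1*, the μ opioid receptor, was at 1.56 to 5.59 RPKM. The α2A adrenergic receptor *Adra2a* was the fifth. On the lower side, *Crhr1*, the receptor of corticotropin-releasing hormone, was at 1.20, 6.55, 10.9, 10.2, 12.6 and 7.83 RPKM against 21 to 93.3 RPKM, *Htr2a* was at 1.05 to 2.75 RPKM against 3.13 to 9.42 RPKM, and the cannabinoid receptor *Cnr1* had log2 differences of -1.36 ± 0.11, -0.42 ± 0.11 and -1.43 ± 0.11. *Ntsr2*, *Chrm2* and *Adra1d* were the others. Of 4 neuropeptide genes, *Cck* (5.59 to 16.8 RPKM against 18.4 to 60.1 RPKM) and *Adcyap1* were lower and 0 higher.

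Of 58 axon guidance and adhesion genes tested, 10 were higher and 21 lower in layer 6 throughout, where 5.39% and 8.07% of all genes were. *Ephb1*, an ephrin receptor, was at 31.6, 24.3, 21.2, 29.9, 33 and 28.4 RPKM and at most 5.44 RPKM in the other classes. *Nrp1*, a semaphorin coreceptor, was at 13.4 to 24.1 RPKM and at most 10.4 RPKM elsewhere, and *Plxna2*, a plexin, at 45.2 to 50.9 RPKM and at most 29.8 RPKM. Among the lower genes, the ephrin receptor *Epha6* was at 1.89 to 3.89 RPKM against 10.7 to 50.2 RPKM, the netrin receptor *Unc5d* at 0.248 to 2.93 RPKM against 4.32 to 27.6 RPKM, and the cadherin *Cdh8* at 1.54 to 2.63 RPKM against 6.20 to 14.4 RPKM.

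Of 42 voltage-gated potassium channel genes, 6 were higher, among them *Kcna1*, *Kcnc4*, *Kcnip3*, *Kcnn1* and *Kcnt1*, and 9 lower. *Kcnq5*, an M-current subunit, was at 2.22 to 5.21 RPKM in layer 6 and at 7.37 to 19.3 RPKM elsewhere. Of 21 calcium, sodium and HCN channel genes, *Cacna1d*, *Scn2a* and *Scn4b* were higher and 6 lower. *Cacna1g*, a T-type calcium channel, was at 4.54, 8.68, 18, 16.4, 18.4 and 9.81 RPKM in layer 6, and no other class was below 37.3 RPKM. Its log2 differences were -2.42 ± 0.13, -2.66 ± 0.13 and -2.52 ± 0.13. *Hcn4*, a pacemaker channel, was above 0 in 5.84% of members and in 18% to 23.8% of the other classes.

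Of 11 genes of the GLP and G9a complex, 0 were higher or lower in layer 6 than in each other class by limma, and the median log2 difference was between -0.01 and 0.02. Of 16 activity-regulated genes, *Bdnf* was lower throughout (0.642 to 1.87 RPKM) and 0 higher. Markers of other cell types were counted in the same way. All these counts stand beside 5.39% of all genes higher and 8.07% lower throughout. Of 2 interneuron genes tested of 13, 0 differed throughout, and the summed interneuron level was 5.23 to 15.2 RPKM in layer 6 and 3.66 to 24.9 RPKM in the other classes. Of 5 oligodendrocyte genes, *Mbp* and *Mobp* were lower, with a summed level of 8.52 to 19.6 RPKM against 10.3 to 23.4 RPKM. Of 5 astrocyte genes, the glutamate transporter *Slc1a2* was higher (45.5 to 112.3 RPKM), and the summed level was 50.6 to 122.9 RPKM against 21.7 to 97.2 RPKM. In the remaining lists, 0 of 1 oligodendrocyte precursor and 0 of 2 endothelial genes differed throughout, and of 9 pan-neuronal genes *Map2* was higher and *Meg3* lower. The part of these levels in the other differences was not tested.

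As the class was chosen by *Foxp2*, a forkhead factor, and carried *Tbr1*, a T-box factor, the promoters of its genes (250 bases before to 50 bases after the RefSeq start, GRCm38.p6) were searched on both strands for the letters TGTTTAC (forkhead) and TCACACC (T-box). The forkhead letters were found in 3.09% of all 27025 promoters and in 2.11% of the 11675 promoters of genes tested. They were found in 2.61% of 690 promoters of genes higher in layer 6 throughout and in 2.64% of 946 lower. The T-box letters were found in 3.31% of all promoters, 3.07% of those of genes tested, 2.46% of the higher and 3.81% of the lower ones. Of the leading genes with a promoter that was searched, only *Cnksr3* had a match, to the forkhead letters, and binding was not tested. The distal part of its promoter window is shown (minus strand, chr10:7212388-7212487), with the match in capitals.
Cnksr3: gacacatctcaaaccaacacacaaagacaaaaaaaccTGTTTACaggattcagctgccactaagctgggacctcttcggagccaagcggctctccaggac

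*Casp1*, the protease of the inflammasome that the study follows in neurons, was rare in layer 6 nuclei. It was above 0 in 2 members (0.73%, exact 95% interval 0.0885 to 2.61%), in 49 upper layer nuclei (13.7%), in 61 layer 4/5a nuclei (16.7%) and in 14 layer 5 nuclei (4.28%). Intervals cover counting error only. In microglia, 62 nuclei were positive (42.5%), and in oligodendrocytes 1 of 397 (0.252%), which lies within the interval of the layer 6 share. The 2 positive members came from the 96-well WT and Δ/+ pools and held 2 reads and 1 read. The 384-well pools had 0 of 34, 0 of 57, 0 of 42 and 0 of 55 positive members, which allows shares of up to 8.82%, 5.26%, 7.14% and 5.45%.

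Within pools, the *Casp1*-positive share in layer 6 was lower than in the upper layer in 6 of 6 pools, with a mean difference of -12.8 points (exact sign-flip permutation, p = 0.0312, the smallest 6 pools allow, adjusted p = 0.0469 over 3 classes). It was lower than in layer 5 in 6 of 6 pools (-3.48 points, adjusted p = 0.0469, exact permutation). Against layer 4/5a it was lower in 5 of 6 pools (-16.3 points, adjusted p = 0.0625, exact permutation), where iTg had 0 in both. Positive layer 5 nuclei numbered 2, 5, 2, 3, 1 and 1 by pool, so the layer 5 difference rests on few nuclei. When at least 2 reads were required, layer 6 was lower than layer 5 in 4 of 6 pools. The upper layer share was 7.84, 32.7, 5.17, 20, 6.15 and 9.80% by pool, so its mean difference joins unlike pools. When nuclei were thinned to 287248 (96-well) or 191338 reads (384-well), leaving out 5 and 19 members, the differences were -10.7, -2.41 and -13.8 points and did not pass correction (adjusted p = 0.0938, 0.156 and 0.0938 by exact permutation against the upper layer, layer 5 and layer 4/5a). *Casp1* was left out of the test across all genes, because no class had it above 0 in at least 10% of nuclei in every pool. Of 5 other inflammasome genes tested, 0 differed throughout by limma, where 5.39% of all genes were higher and 8.07% lower.

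**Figure D4:**
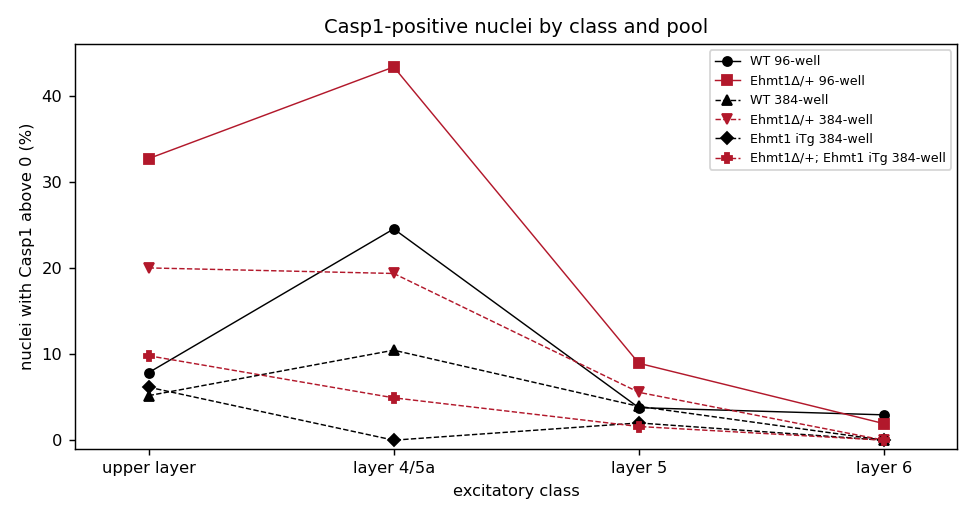
Share of nuclei with *Casp1* above 0, in percent, by excitatory class and pool (red, labelled Δ/+; solid lines, 96-well; dashed lines, 384-well). In layer 6 all 6 pools lie between 0 and 2.94%, whereas layer 4/5a reaches 43.3% in the 96-well Δ/+ pool.

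The question of the study, what loss of 1 *Ehmt1* copy does to neurons, was then asked of layer 6 alone. The class made up 17.8% (WT) and 23.6% (labelled Δ/+) of excitatory nuclei in 96-well plates, and 16.2% (WT), 22.5% (Δ/+), 19.1% (iTg) and 23.9% (Δ/+; iTg) in 384-well plates. The 3 pools labelled Δ/+ were all above the 3 others, with 23.4% ± 0.732 against 17.7% ± 1.45 (SD, n = 3 pools each, difference of 5.67 points, exact permutation p = 0.1). That p is the smallest that 3 against 3 pools allow, and the test was added after the shares had been seen. The exact 95% intervals of single pools, which cover counting error only, overlapped, for example 12.7 to 24% and 18.2 to 29.8% in the 96-well pools. Within the 3 plate codes that both 96-well pools share, the share in the Δ/+ pool was higher in each (18% against 12.2%, 24.1% against 12.2% and 31.5% against 26.1%). The same code and well named nuclei of both pools in many cases, so a shared code cannot be taken as a shared plate. The comparison within codes therefore does not separate plate from genotype. In the 384-well plates, WT and Δ/+ had no plate code in common, so plate and genotype cannot be told apart there either. Of the other classes, layer 4/5a was the one whose shares did not overlap (24.5 to 27.3% in Δ/+ pools, 27.7 to 31.9% in the others). The shares add up to a whole, and sorted nuclei do not count cells in the tissue.

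**Figure D5:**
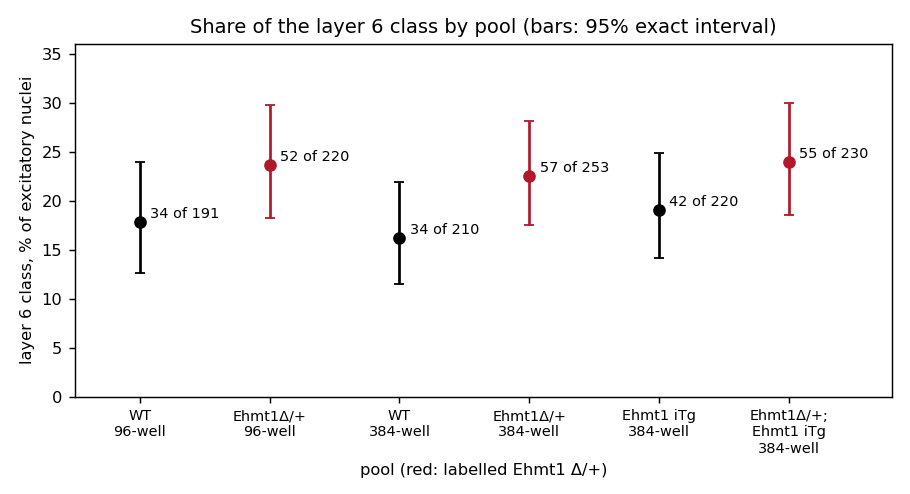
Layer 6 nuclei as a percentage of excitatory nuclei in each pool, with exact 95% intervals for counting error and the number of nuclei (red, labelled Δ/+). The 3 red pools lie between 22.5% and 23.9% and the 3 others between 16.2% and 19.1%.

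No gene passed the test for genotype in layer 6. Of 22856 genes tested between WT and the pools labelled Δ/+ over both plate formats, 0 had a limma adjusted p under 0.05 (0.00%), and 1349 had an unadjusted p under 0.05 (5.90%). With 4 pools and the plate format as a block, the fit had 1 residual degree of freedom, so a count of 0 does not show that no gene differed. The test of whether the genotype difference was larger in layer 6 than in the other classes also gave 0 (0.00%), with 1392 at an unadjusted p under 0.05 (6.09%). The values below are therefore descriptions. *Ehmt1* had a log2 difference of 0.83 ± 0.19 (limma adjusted p = 0.815), with 0.77 in 96-well, 0.89 in 384-well and 0.83 between the Cre-carrying pools. In the upper layer, layer 4/5a and layer 5 it was 0.71, 0.77 and 0.68, and the difference of layer 6 from these was 0.11 ± 0.16 (adjusted p = 0.966).

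*Capn11*, a calpain protease on chromosome 17 (45630204 to 45659325), was the named gene with the largest decrease. It was at 1.71, 0.117, 5.22, 0.724, 6.95 and 0.534 RPKM, lower in the Δ/+ pool of all 3 pairs (-3.06, -2.69 and -3.47 on the log2 scale). In the 4 WT and Δ/+ pools, the fit gave -2.87 ± 0.22 (adjusted p = 0.815). The other classes had -2.18, -1.38 and -2.33, and the difference of layer 6 from them was -0.91 ± 0.56 (adjusted p = 0.885). Of all genes tested, 10.2% were lower in all 3 pairs, and in 2.04% the 3 Δ/+ pools lay below the 3 others, as for *Capn11*, while in 2.48% they lay above, as for *Ehmt1*.

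The other genes named by the rule kept their direction in the Cre-carrying pair only in part. The 10 highest with the Δ/+ label were *Rec8*, *Cpne2*, *Gstt1*, *Spag5*, *Aspg*, *C1ra*, *C1rb*, *Krt7*, *Ahnak* and *Bglap*, and the other 9 lowest were *Mndal*, *Zbtb20*, *Sephs2*, *Pcdhga1*, *Pop7*, *Lrrc75aos1*, *Wnk4*, *Rnasek* and *Skida1*, all with adjusted p = 0.815. *Aspg*, an asparaginase homologue, was at 0.481, 1.45, 0.328, 2.91, 0.780 and 3.08 RPKM and *Cpne2*, a copine, at 0.359, 1.42, 0.537, 1.93, 0.0971 and 0.906 RPKM, higher in the Δ/+ pool of all 3 pairs. *Ahnak*, a giant scaffold protein, was at 1.037, 2.48, 1.13, 2.75, 1.06 and 1.23 RPKM.

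*C1ra*, a protease subunit of complement C1, was at 1.26, 3.3, 1.73, 4.19, 1.38 and 0.304 RPKM, higher with the Δ/+ label in both plate formats but lowest of all pools in Δ/+; iTg. *C1rb*, its close copy, followed at 0.586, 1.5, 0.549, 1.72, 0.999 and 0.146 RPKM, and *C1s1* at 0.646, 2.33, 1.25, 2.55, 1.23 and 0.599 RPKM. In the list of complement proteases and related genes, 5 of 5 tested were higher with the Δ/+ label in both formats, where 24.5% of all genes were, and their median log2 difference was 1.34. That list came from earlier results of the same nuclei and is no independent evidence. Of 12 GLP and G9a complex genes tested for genotype, 1 was higher and 3 lower in both formats, against 24.5% and 27.4% of all genes.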

How the data were processed

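Labels gave the condition and the cell type. The authors aligned reads to mm10 with HISAT2 2.0.4, counted them per gene with featureCounts (Subread 1.5.0) and a Gencode annotation, filtered poor nuclei and deposited RPKM values for 52636 genes. These are not counts, so no count test was run, although the study used edgeR. Values above 0 were multiples of 1 read within 0.001 reads for 68.5% (96-well) and 74.6% (384-well), and of a hundredth of a read for 100%. Where these parts of reads come from was not tested. Read totals were recovered from these steps. The study's methods state default settings for counting, which take no account of strand. The parts of reads leave the settings used uncertain. Under the stated defaults, reads from parts where genes on opposite strands overlap cannot be told apart by strand.

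Z-scores of log2(RPKM + 1) were taken within a plate format. For each pool and class the mean RPKM was taken, and log2(mean + 0.1) was fitted with limma 3.58.1 (R 4.3.3) and Benjamini-Hochberg adjustment at 0.05, which understates the change of low genes. Fitted values ± SE are on this scale. Genes were tested that were above 0 in at least 10% of nuclei of at least 1 class in every pool (or, for genotype, of 1 genotype in both plate formats). The class fit left out the 14 genes of the rule. Shares had exact Clopper-Pearson 95% intervals, and a share of 0 the limit that 3 counts allow. Sign-flip and label permutations were enumerated with SciPy 1.17.1. Genes were named if on a list, or if among the 20 highest and 10 lowest by the smallest of the 3 class differences, or among the 10 highest and 10 lowest by the smaller of both genotype ratios with a mean of at least 1 RPKM. The members and lists were chosen with earlier results of these data known. Coordinates are GENCODE M21 (GRCm38), promoters RefSeq. Doublets were not called. The statistical steps were tested on simulated data.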

Additional observations from a re-analysis of the deposited data

How the results depend on the processing

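Alternatives were a pseudocount of 1, no filter on low values, means of logs, a variance trend, members with at least 2 markers, a lead of at least 0.5 in every class, z-scores over both plate formats, and leaving out each pool, with median centring and further genotype terms chosen after seeing the data. Genes higher in all 3 class contrasts numbered 950 to 1661 and lower ones 1511 to 2041 over these settings, and of the repeated class differences of named genes, 1258 kept direction and call and 2 kept the direction only. The genotype test gave 0 genes at an adjusted p under 0.05 in every setting. Its difference between layer 6 and the other classes gave 1 and 2 genes without the 96-well and the 384-well WT pool when the class by format term was dropped; the cause was not tested.

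When the Cre-carrying pair entered the genotype fit and single pools were left out, the log2 differences ranged from -0.32 to 1.27 for *C1ra* (-0.28 without either 384-well pool of the other pair), -0.47 to 1.35 for *C1rb* (-0.34 without either 96-well pool), -0.21 to 1.02 for *C1s2* and -1.65 to 0.0105 for *Zbtb20*; the cause was not tested. The *Casp1* difference from the upper layer lost its call with a lead of at least 0.5 (-14.8 points), after thinning (-10.7), with at least 2 reads (-8.81) and without any pool (-14.4 to -9.21), and that from layer 5 likewise (-4.51, -2.41, -2.88, and -4.01 to -2.78). With 5 pools, no exact p can be under 0.0625. With a lead of at least 0.5, the layer 6 share in the 96-well Δ/+ pool was 31.6%, and the surplus of detected genes over layer 4/5a of 523.5 passed correction (exact permutation, adjusted p = 0.0312). No paired analysis was possible because replicate numbers name nuclei, which share only a number between pools. The class tests were made within pools, and the layer 6 share was higher with the Δ/+ label in each pair of pools (5.84, 6.34 and 4.82 points).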
